A study of Saccharomyces cerevisiae with 24 samples.

Results

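Footprints of DNA-binding proteins were followed in the sml1∆ SSDDCS strain after the middle of S phase, in 3 libraries taken at 45, 50 and 60 min after release from G1 and 3 libraries taken at 25, 30 and 35 min. These 6 libraries are all SSDDCS samples of these 2 windows, out of 24 in the series (12 per strain). The budding yeast (Saccharomyces cerevisiae) cells of both strains were W303 MATa with the alleles rad5-535, can1-100, leu2-3, 112, ura3-1, trp1-1, ade2-1 and his3-11, 15. The SSDDCS strain was sml1∆ (HphNT), which removes an inhibitor of ribonucleotide reductase, and carried extra copies of 6 replication initiation factors on either side of the galactose-inducible promoter PGAL1-10: Sld7 and Cdc45 at leu2, SLD3-A and Dbf4-A at his3, and Sld2 and Dpb11 at trp1. The sml1∆ control strain (sml1∆ by URA3) lacked these copies. Both strains were grown in raffinose, held in G1 with the mating pheromone alpha factor, given galactose and released into galactose medium. The 3 libraries of a window were serial samples of 1 culture and no library had a replicate, so every p-value given here measures a change between windows against the spread between neighbouring time points, not between cultures.

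Micrococcal nuclease cuts DNA that no protein covers. Fragments shorter than a nucleosome survive where a smaller particle, such as a transcription factor, the origin recognition complex or the RNA polymerase III machinery at a tRNA gene, sits on the DNA. A replication fork displaces such proteins, and they have to bind again to both daughter copies. The general regulatory factors Reb1, Abf1 and Rap1, which keep promoters free of nucleosomes, and cell-cycle regulators such as SBF, MBF and Fkh bind short motifs, so the sequence under a footprint names candidates for the protein but does not identify it.

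The deposited peaks numbered 58467. After the ribosomal DNA array was left out, 5671 peaks held 240 or more reads over the 24 libraries and were tested, and 52622 held fewer. Outside the array the 45, 50 and 60 min libraries held between 344940 and 362505 reads and the 25, 30 and 35 min libraries between 338645 and 365492. The median tested peak held an average of 15.7 reads per library at 45 to 60 min and 13.7 at 25 to 35 min, so single peaks were measured coarsely, with a median standard error of 0.33 on the log2 scale. Of the 5671 peaks, 3528 lay in intergenic DNA within 1000 bp upstream of a start codon (promoter peaks), 1090 inside reading frames, 403 in long terminal repeats or Ty elements, where reads of different copies cannot be told apart, 180 at tRNA genes, 155 between convergent genes, 81 in annotated origins, 2 at centromeres and 232 elsewhere.

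The sequences under 9 of the peaks described here are shown first, because they show what kind of site the footprints cover. Each runs from 50 bases before to 50 bases after the deposited peak position on the plus strand of the R64 genome in RefSeq, with letters fixed by a motif described below, on either strand, in capitals. RHO5, CUE5, NUP49, SKA1 and EBS1 were among the peaks that rose most, DSE1 had one of the smallest p-values for a difference from the control strain, AIM11 fell, GAL10 is the galactose-responsive promoter, and the chromosome XII tip was the deepest peak with a Reb1 motif.
RHO5, chrXIV:301099-301199: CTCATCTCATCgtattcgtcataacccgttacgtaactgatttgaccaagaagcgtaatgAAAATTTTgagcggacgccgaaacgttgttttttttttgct
CUE5, chrXV:408199-408299: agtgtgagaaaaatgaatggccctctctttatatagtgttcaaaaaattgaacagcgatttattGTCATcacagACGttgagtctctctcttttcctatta
NUP49, chrVII:180511-180611: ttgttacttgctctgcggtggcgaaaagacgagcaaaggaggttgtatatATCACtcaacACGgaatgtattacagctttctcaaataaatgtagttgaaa
SKA1, chrXI:393573-393673: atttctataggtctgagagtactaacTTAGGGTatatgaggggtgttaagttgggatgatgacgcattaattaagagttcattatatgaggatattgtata
EBS1, chrIV:861570-861670: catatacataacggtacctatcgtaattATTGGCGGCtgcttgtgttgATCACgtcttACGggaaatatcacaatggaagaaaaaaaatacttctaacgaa
DSE1, chrV:409445-409545: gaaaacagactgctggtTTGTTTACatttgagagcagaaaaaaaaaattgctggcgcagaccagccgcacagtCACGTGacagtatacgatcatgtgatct
AIM11, chrV:348477-348577: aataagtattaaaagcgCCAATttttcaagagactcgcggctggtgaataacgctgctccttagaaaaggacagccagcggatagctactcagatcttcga
GAL10, chrII:278540-278640: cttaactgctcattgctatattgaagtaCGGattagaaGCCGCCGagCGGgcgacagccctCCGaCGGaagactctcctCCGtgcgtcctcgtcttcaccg
chromosome XII left tip, chrXII:85-185: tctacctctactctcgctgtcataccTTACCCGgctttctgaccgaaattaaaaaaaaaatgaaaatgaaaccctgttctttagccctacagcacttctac
The capitals mark PAC (GATGAG) and Stb3 (AAAATTTT) at RHO5, an Abf1 site at CUE5, NUP49 and EBS1, the Tbf1 motif ACCCTAA at SKA1, the Ume6 motif GGCGGC and the CCAAT box at EBS1, the Fkh motif GTAAACAA and the Cbf1 motif CACGTG at DSE1, CCAAT at AIM11, pairs of CGG and CCG spaced as in Gal4 sites together with GGCGGC at GAL10, and the Reb1 motif TTACCCG at the chromosome tip.

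The strain labels were checked at loci the genotypes alter. No peak lay inside SML1, so the deletion could not be seen in these counts. The 3 tested peaks of the GAL1-GAL10 promoter together held 545, 577 and 574 RPM (reads per 1e6 reads outside the array) at 45, 50 and 60 min in the SSDDCS strain, against 434, 377 and 435 at 25, 30 and 35 min, and between 91.4 and 163 over the 12 control libraries. The SSDDCS reads come from the native promoter and the 3 integrated copies, which cannot be told apart. Reads inside the 6 reading frames were between 1.55 times (SLD7) and 3.31 times (CDC45) those of the control strain over the same 6 time points.

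The first question was how much of the footprint signal was present again after the middle of S phase. Deep peaks took a larger part of the reads in the later window: the share of reads outside the ribosomal DNA that fell in the tested peaks was 28.0%, 30.1% and 29.9% at 45, 50 and 60 min, against 26.2%, 24.6% and 25.7% at 25, 30 and 35 min. The windows did not overlap. The means were 29.3% ± 1.17 at 45 to 60 min and 25.5% ± 0.849 at 25 to 35 min (SD, n = 3 each), a difference of 3.85 percentage points (exact permutation test, two-sided, p = 0.10, the smallest that 3 against 3 libraries can give). In G1 the share had been 35.1%, and the library at 40 min stood at 27.8%. The later window had covered 40.1% of the distance between the middle window and G1, which is a single library. Counted over all reads with the array in the denominator, this figure was 80.1%. The array held 37.5% of the G1 reads and between 26.6% and 30.9% of the reads of the 6 libraries. The share is relative, so a larger share of the deep peaks is a smaller share of the 52622 shallow ones.

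**Figure D1:**
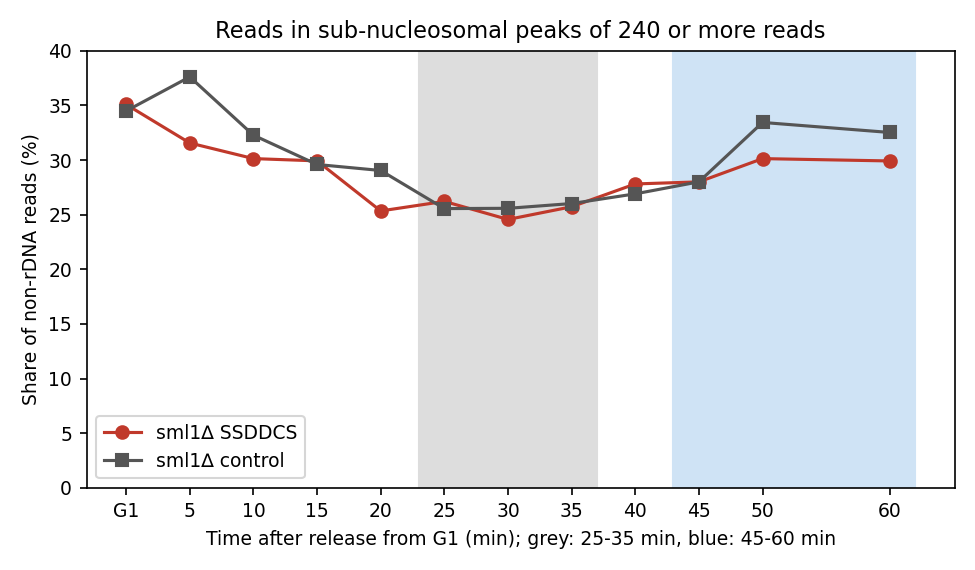
Share of non-rDNA reads (%, y axis) in peaks of 240 or more reads against minutes after release (x axis, G1 drawn at the left), 1 point per library, for the sml1∆ SSDDCS (red circles) and sml1∆ control (grey squares) strains. In the SSDDCS strain the 45 to 60 min points lie between 28.0% and 30.1%, above all points at 25 to 35 min and below the G1 value of 35.1%.

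The control strain had 31.3% ± 2.91 at 45 to 60 min and 25.7% ± 0.259 at 25 to 35 min (SD, n = 3 each). Its later window had covered 63.9% of the distance to its single G1 library, or 105% with the array in the denominator. At 45 to 60 min the SSDDCS strain stood 1.97 percentage points below the control, with SSDDCS values of 28.0%, 30.1% and 29.9% overlapping the control values of 28.0%, 33.4% and 32.5% (exact permutation test, two-sided, p = 0.30). Paired by sampling time, a pairing chosen after the data were seen, the SSDDCS share minus the control share was -0.0028, -3.31 and -2.61 percentage points at 45, 50 and 60 min (exact sign-flip permutation test, two-sided, p = 0.25, the smallest that 3 pairs can give).

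Single peaks were then tested with edgeR. Scaled by the library total without the array, the median tested peak was higher by 0.19 on the log2 scale at 45 to 60 min, or 1.14-fold, and 70.3% of the peaks had a positive change. At an adjusted p under 0.05, 80 of 5671 peaks rose (1.41%) and 5 fell (0.0882%), and 906 peaks had an unadjusted p under 0.05. The 80 peaks had a median log2 change of 1.05, between 0.71 and 1.76, and averaged a median of 31.8 reads per library at 45 to 60 min and 14.8 at 25 to 35 min. In 77 of the 80 every library of the later window lay above every library of the middle window, which held for 882 of all tested peaks (15.6%), and in 4 of the 5 that fell every later library lay below, against 183 of all tested peaks (3.23%).

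How many peaks passed depended on how the libraries were scaled. With TMM factors, which centre the median peak (median log2 change 0.00), 12 peaks rose and 9 fell. With each peak scaled to the shallow peaks within 10 kb of it, 131 rose and 3 fell, 58 of the 131 being among the 80. DESeq2 with its own size factors called 0 peaks, with 165 at an unadjusted p under 0.05. Leaving out the 60 min library left 8 higher peaks, and leaving out the 30 min library left 13, while 25 were higher without 50 min and 32 without 25 min. The changes given from here on are on the scale of the library total, where the median peak stands at 0.19.

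Of the 80 peaks that rose, 65 were promoter peaks (81.3%, against 62.2% of all tested peaks), 8 lay in reading frames, 4 in other intergenic DNA, 2 at tRNA genes and 1 in an origin. The strongest change was at RHO5, where the peak 500 bp upstream of the start held 11, 11 and 23 reads at 45, 50 and 60 min, against 6, 2 and 5 at 25, 30 and 35 min (log2 change 1.76, SE 0.43, edgeR adjusted p = 0.012). SED1, a structural protein of the cell wall, had 12, 13 and 9 reads against 4, 3 and 3 (log2 change 1.73, SE 0.49, edgeR adjusted p = 0.042), at position 600642 of chromosome IV. CUE5, a ubiquitin-binding adaptor of autophagy, had 11, 10 and 24 reads around its Abf1 motif, against 5, 3 and 7 (log2 change 1.56, SE 0.41, edgeR adjusted p = 0.028). These 3 peaks held between 2 and 24 reads per library, and in RHO5 and CUE5 the 60 min library was the highest of the 6. RHO5 passed the threshold in 10 of 15 other settings and CUE5 in 8 of 15.

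The peaks at EBS1, ISM1 and UBR2 held more reads than those at RHO5, SED1 and CUE5. EBS1, a relative of the telomerase subunit Est1, had 28, 41 and 41 reads at 45, 50 and 60 min, against 16, 10 and 15 at 25, 30 and 35 min, over a window that holds an Abf1 motif, GGCGGC and CCAAT (log2 change 1.42, SE 0.27, edgeR adjusted p = 0.00079). It passed the threshold in 15 of 16 other settings, the highest share among the peaks named for their rise. ISM1, the mitochondrial isoleucyl-tRNA synthetase, had 20, 23 and 29 reads against 8, 9 and 8, with no searched motif in the window (log2 change 1.51, SE 0.33, edgeR adjusted p = 0.0035), and passed in 13 of 15. A peak inside the reading frame of UBR2, a ubiquitin ligase, had 18, 31 and 27 reads against 7, 11 and 10 (log2 change 1.43, SE 0.32, edgeR adjusted p = 0.0037). The ISM1 peak lies at position 479105 of chromosome XVI, 104 bp upstream of the start codon, and the UBR2 peak at 187714 of chromosome XII, 585 bp upstream of IZH3.

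The remaining 6 of the 12 peaks with the largest rise were at EXO84, NUP49, SKA1, BNS1, a valine tRNA gene on chromosome V and CTA1. EXO84, a subunit of the exocyst, had 18, 13 and 17 reads at 45 to 60 min, against 5, 4 and 8 at 25 to 35 min. NUP49, a nuclear pore protein, had 14, 16 and 12 reads against 5, 4 and 6, at the Abf1 motif shown above. SKA1, a partner of the RNA-degrading Ski complex, had 13, 11 and 20 against 8, 4 and 4, at the Tbf1 motif. BNS1, a relative of the mitotic exit gene SPO12, had 21, 19 and 31 against 6, 6 and 15. The tRNA gene had 21, 13 and 16 against 5, 6 and 8. CTA1, the peroxisomal catalase, had 17, 15 and 15 against 6, 6 and 6. Their log2 changes lay between 1.37 and 1.48 with edgeR adjusted p-values between 0.0099 and 0.042, and in none of the 6 did the windows overlap. Those with no sequence shown lie at 447477 of chromosome II (EXO84, 154 bp upstream of the start codon), 951585 of chromosome VII (BNS1, 309 bp), 469512 of chromosome V (the tRNA gene) and 969931 of chromosome IV (CTA1, 251 bp). Most of them stood close to the threshold: NUP49 and CTA1 passed in 3 of 15 other settings and SED1 in 2 of 15.

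**Figure D2:**
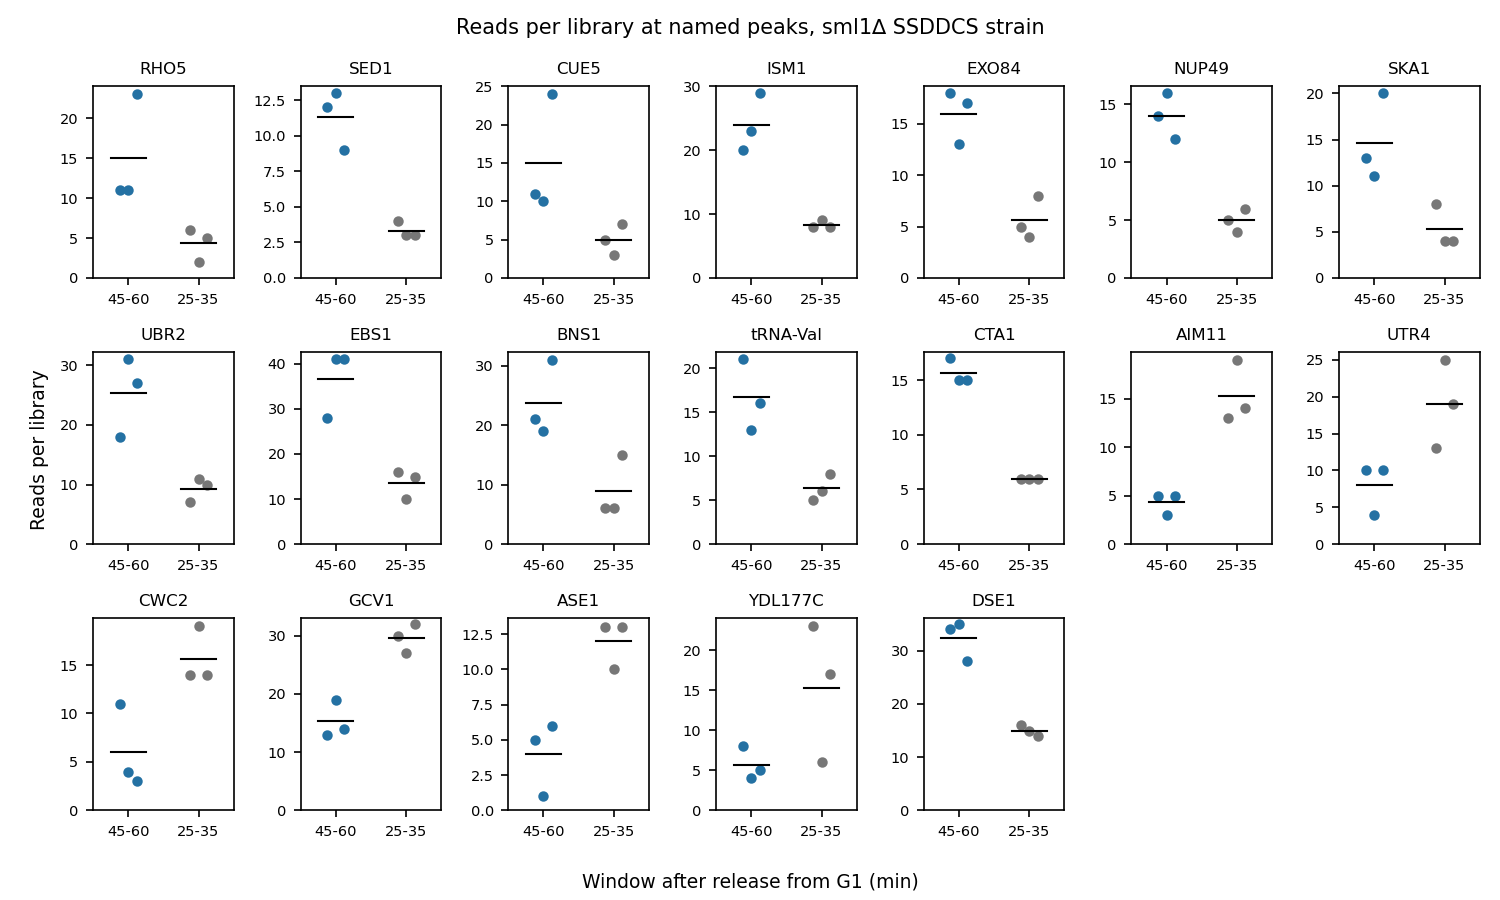
Reads per library (y axis, from 0, scale set for each panel) at 19 named peaks of the sml1∆ SSDDCS strain, with the 3 libraries of 45 to 60 min on the left (blue) and of 25 to 35 min on the right (grey) of each panel, 1 point per library and a bar at the mean. The 12 panels from RHO5 to CTA1 and that of DSE1 are higher in the later window, AIM11, UTR4, CWC2, GCV1, ASE1 and YDL177C are lower, and only YDL177C has windows that overlap.

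The peaks that fell were 5, and 3 of them lay in reading frames, against 1090 of all 5671 tested peaks. The largest fall was in the promoter of AIM11, a mitochondrial gene of unknown role, with 5, 3 and 5 reads at 45, 50 and 60 min, against 13, 19 and 14 at 25, 30 and 35 min (log2 change -1.79, SE 0.43, edgeR adjusted p = 0.010). The promoter of GCV1, a subunit of the glycine decarboxylase, had 13, 19 and 14 reads against 30, 27 and 32 (log2 change -0.95, SE 0.27, edgeR adjusted p = 0.042). Inside reading frames lay UTR4, an enzyme of methionine salvage, with 10, 4 and 10 reads against 13, 25 and 19, the splicing factor CWC2, with 11, 4 and 3 against 14, 19 and 14, and YDL177C, named after its values were seen, with 8, 4 and 5 against 23, 6 and 17, where the windows overlapped. The AIM11 and GCV1 peaks lie 127 and 165 bp upstream of the start codons, GCV1 at 485530 of chromosome IV, and the others at 80852 of chromosome V (UTR4), 87188 of chromosome IV (CWC2) and 141394 of chromosome IV (YDL177C). The next peak by p, inside the microtubule-bundling gene ASE1, was not called: 5, 1 and 6 reads against 13, 10 and 13 (log2 change -1.55, SE 0.46, edgeR adjusted p = 0.054). The G1 library held 9 reads at AIM11, 23 at GCV1, 10 at UTR4, 8 at CWC2 and 8 at YDL177C, in the first 4 fewer than any library of 25 to 35 min. The test had picked these peaks for high values at 25 to 35 min, so this is a description. AIM11 passed the threshold in 9 of 15 other settings and GCV1 in 4 of 16. The UTR4 peak passed in 5 of 15, the CWC2 peak in 4 of 15 and the YDL177C peak in 6 of 15.

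The median change differed between classes of peaks. Promoter peaks had a median log2 change of 0.26 and peaks in reading frames 0.00, beside 0.19 over all tested peaks. Promoter peaks summed to 178895, 199879 and 198460 RPM at 45, 50 and 60 min, against 163044, 152265 and 164627 at 25, 30 and 35 min, which was 80.0% of the G1 sum in the later window and 66.5% in the middle window. Reading-frame peaks summed to 97.2% of G1 in the later window and 96.5% in the middle one, and their windows overlapped. With TMM factors the reading-frame median was -0.19 and the promoter median 0.07, so the direction of the reading-frame peaks depends on the scale. Their place below the median of all peaks held under all 16 other settings, and the place of the promoter peaks above it likewise. Settings such as TMM factors rescale whole libraries and so shift all peaks nearly alike. The others draw on the same libraries, so these counts are not independent checks. On the scale of the library total, the control strain had medians of 0.38 for promoter peaks and 0.01 for reading-frame peaks. Its promoter sums were 89.4% of G1 in the later window and 69.0% in the middle one.

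Peaks at tRNA genes, which RNA polymerase III and its factors occupy, had a median of 0.20, with 2 of 180 called higher (1.11%, against 1.41% of all tested peaks). They summed to 96.2% of G1 at 45 to 60 min and 83.1% at 25 to 35 min. In origins, which the origin recognition complex binds, the median was 0.11 and the sum 78.9% of G1, against 71.0%, with overlapping windows (exact permutation test, two-sided, p = 0.20). Peaks between convergent genes had a median of 0.08 and none of 155 was called, and repeat peaks had 0.12 and none of 403. The convergent class was assigned before the promoter class, so it can hold peaks upstream of a start codon. One such peak lies 183 bp upstream of GLG2. Both centromere peaks had positive changes, with a median of 0.25.

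**Figure D3:**
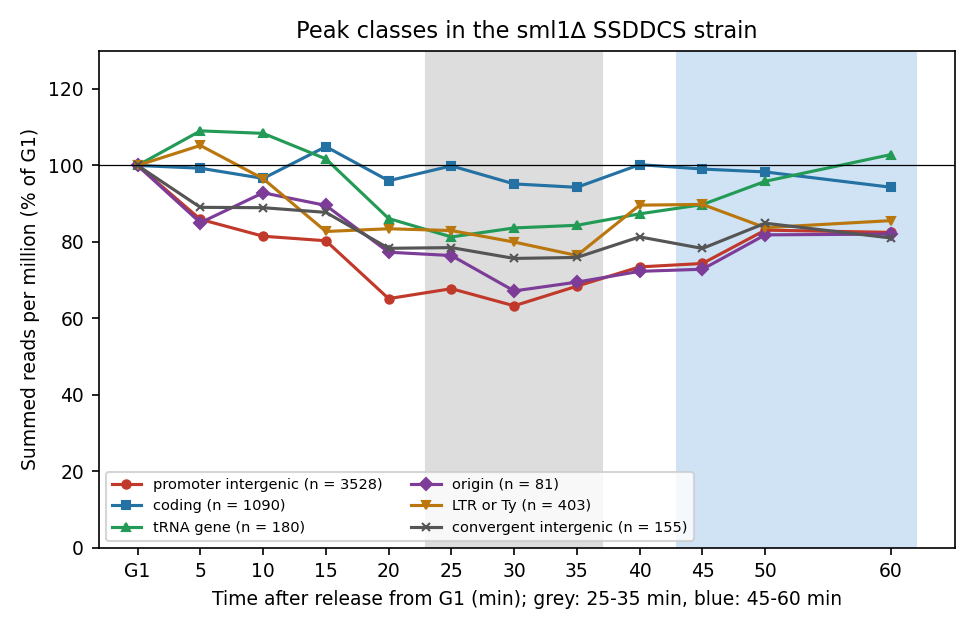
Reads in each of 6 peak classes, scaled by the library total and given as a percentage of the G1 library (y axis) against minutes after release (x axis, G1 drawn at the left) in the sml1∆ SSDDCS strain, 1 point per library. Promoter peaks stand at 66.5% of G1 on average at 25 to 35 min and 80.0% at 45 to 60 min, while reading-frame peaks lie between 94.3% and 105% throughout.

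Which factors' motifs lay under the peaks that moved was asked with 20 motifs searched on both strands within 50 bp of each peak position, among them TTACCCG (Reb1), CCCANACA (Rap1), CACGTG (Cbf1), CGCGAAA (SBF), ACGCGT (MBF), GTAAACAA (Fkh), TGAAACA (Ste12), GGCGGC (Ume6), TGACTCA (Gcn4), AAGGGG (Msn2 and Msn4), ACCCTAA (Tbf1), GATGAG (PAC), AAAATTTT (Stb3), CCAAT (Hap), CGCGCG (Rsc3), and those known as the Abf1, Mcm1, Gal4 and ORC sites. Of the tested peaks, 2564 (45.2%) held none, as did 42 of the 80 that rose. A match is not a bound protein. Abf1 sites lay in 7.64% of the tested peaks and 0.688% of the shallow ones, and TTACCCG in 5.54% and 0.448%, whereas CCAAT (17.6% and 24.8%) was less common in the tested peaks than in the shallow ones. The other motifs in the sequences above lay in 7.25% of the tested and 5.82% of the shallow peaks for GATGAG, 3.10% and 1.19% for AAAATTTT, 1.02% and 0.678% for ACCCTAA, 4.48% and 1.84% for GGCGGC, 0.970% and 0.543% for GTAAACAA, 3.09% and 0.762% for CACGTG, and 1.73% and 0.526% for Gal4 sites. Some motifs share windows: 63 peaks held both GATGAG and AAAATTTT, 35.8% of those with AAAATTTT and 15.3% of those with GATGAG.

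Peaks with the Reb1 motif had the highest median of the 20 motif groups. Its 314 peaks had a median log2 change of 0.34, and 268 of them were positive (85.4%, against 70.3% of all tested peaks). Of the 314, 2 (0.637%) were called higher, against 1.41% of all peaks. They summed to 18273, 20071 and 20484 RPM at 45, 50 and 60 min, against 16126, 14779 and 15894 at 25, 30 and 35 min, or 79.7% of the G1 sum in the later window and 63.4% in the middle one. The 2 deepest lie at chromosome tips, where much sequence is shared between chromosomes, so their reads may come from several ends. The one on chromosome XII held 490, 588 and 591 RPM, against 473, 431 and 432 (log2 change 0.32, SE 0.13, edgeR adjusted p = 0.20), and the one on chromosome XV 394, 463 and 549, against 405, 341 and 320 (log2 change 0.40, SE 0.14, edgeR adjusted p = 0.11). The median of the Reb1 group stood above that of all peaks under all 16 other settings. These settings share libraries or only rescale them, so they are not independent checks. In the control strain the Reb1 median was 0.44, with 28 of its peaks called higher, against 298 of all 5671 peaks.

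The ORC site came next, with a median of 0.33 over 32 peaks and none called. Its 2 deepest members, at the tips of chromosomes XIV and XVI, also held the Reb1 motif. The first had 299, 312 and 305 RPM at 45, 50 and 60 min, against 216, 246 and 205 at 25, 30 and 35 min, with no overlap (log2 change 0.46, SE 0.16, edgeR adjusted p = 0.11), and the second 157, 177 and 226 against 195, 159 and 170, with overlap. AAGGGG, the motif of the stress regulators Msn2 and Msn4, had a median of 0.28 over 274 peaks, with 6 called higher (2.19%, against 1.41% of all tested peaks), among them CLN3 and PDC1. Its deepest peaks were at ECM3, with 45, 64 and 56 reads at 45, 50 and 60 min, against 46, 61 and 49 at 25, 30 and 35 min, and at NDI1, an NADH dehydrogenase of mitochondria, with 47, 60 and 29 against 34, 42 and 25. In both the windows overlapped. MBF, whose motif marks genes of DNA synthesis, had 0.25 over 123 peaks and 3 higher (2.44%). In its 2 deepest peaks the windows overlapped: PSF3, a subunit of the GINS complex, had 34, 42 and 32 reads, against 34, 23 and 47, and IRR1, a cohesin subunit, 27, 35 and 24 against 27, 32 and 33.

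Abf1, with 433 peaks, had a median of 0.20, close to that of all peaks, and 6 higher (1.39%, against 1.41% of all tested peaks). CUE5, NUP49 and EBS1 belong to it, but in its 2 deepest peaks the windows overlapped. The one in an origin near YPR202W held 75, 70 and 53 reads, against 74, 69 and 61 (log2 change -0.04, SE 0.18), and the one at the mitochondrial ribosomal gene MRPL8 46, 55 and 49, against 41, 53 and 54 (log2 change 0.02, SE 0.20). Rap1, which binds ribosomal protein promoters and telomeric repeats, had 0.17 over 153 peaks and 1 higher. Its 2 deepest peaks lie near chromosome ends, with log2 changes of 0.03 (SE 0.13) on chromosome VIII and -0.10 (SE 0.14) on chromosome XII. A further 13 motif groups had medians between 0.18 and 0.25. With TMM factors the median of all peaks was 0.00, that of Reb1 0.15 and that of the ORC site 0.14, and 13 of all 39 classes, motif groups and lists had a negative median.

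**Figure D4:**
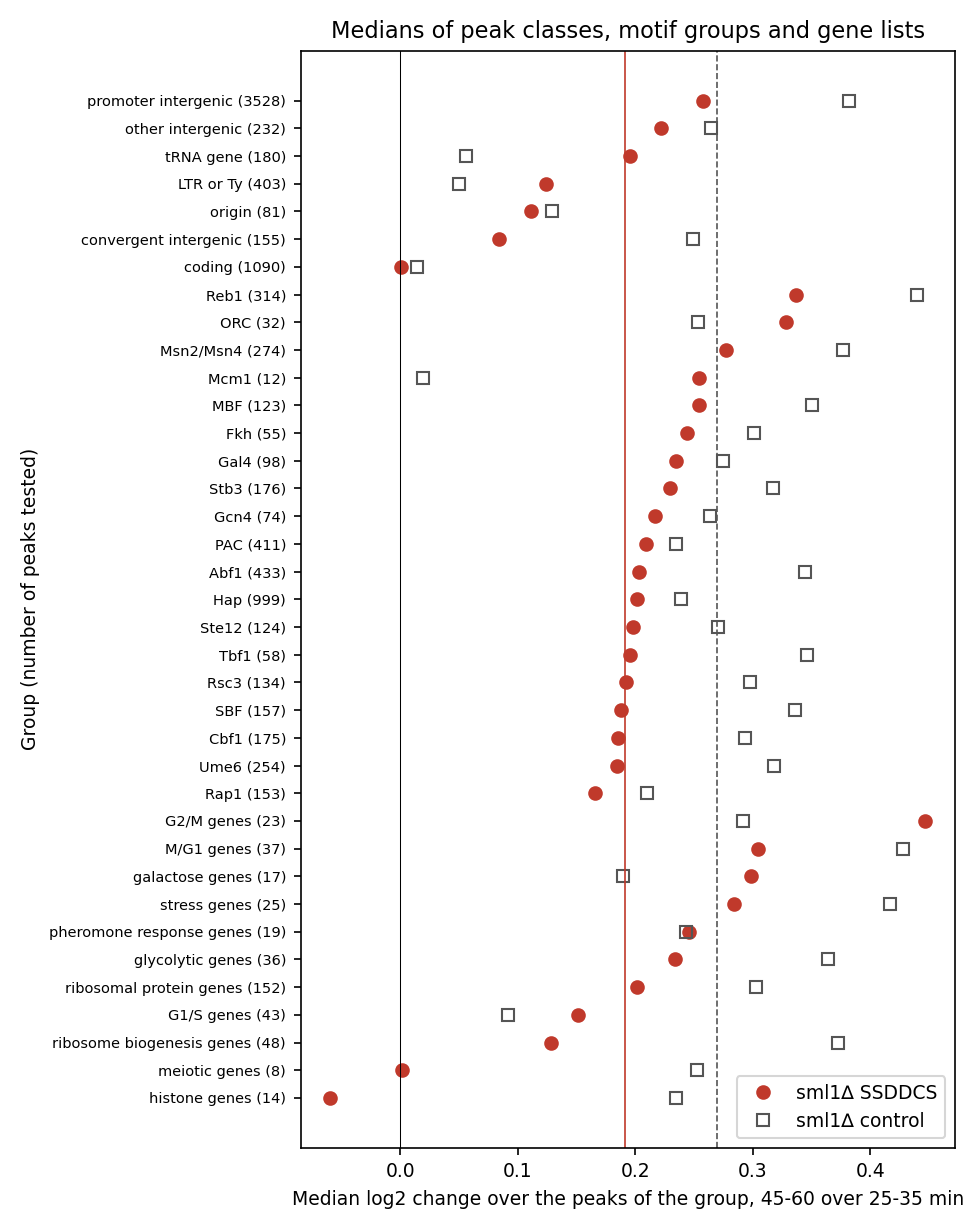
Median log2 change of 45 to 60 min over 25 to 35 min (x axis) for the peak classes, motif groups and gene lists described here with 8 or more tested peaks (y axis, number of peaks in brackets), in the sml1∆ SSDDCS (filled circles) and sml1∆ control (open squares) strains. The solid and dashed lines mark the medians of all tested peaks, 0.19 in the SSDDCS and 0.27 in the control strain. Reb1 is at 0.34 and reading-frame peaks at 0.00 in the SSDDCS strain, and at 0.44 and 0.01 in the control strain.

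Gene lists were read through the tested peaks within 1000 bp upstream of a member's start codon, outside repeats, whatever the class of the peak. Summed over the 11 lists, 372 of 422 such peaks were promoter peaks, 39 lay inside reading frames and 11 were of other classes. Genes of G2/M, which are transcribed as cells approach mitosis, had the highest median, 0.45 over 23 peaks. Of these peaks, 19 were positive (82.6%, against 70.3% of all tested peaks) and none was called (background 1.41%). Their sums reached 102% of G1 at 45 to 60 min and 80.9% at 25 to 35 min. The deep peak upstream of PMP1, inside a neighbouring reading frame, had 37, 42 and 48 reads at 45, 50 and 60 min, against 44, 51 and 49 at 25, 30 and 35 min (log2 change -0.18, SE 0.20). With TMM factors the G2/M median was 0.26, and over its 19 promoter peaks alone the median was 0.53. Over the other settings it lay between 0.03 and 0.56. The control strain had a G2/M median of 0.29. Genes of M/G1, active at the end of mitosis, had a median of 0.30 over 37 peaks, and 0.39 over the 32 that are promoter peaks. The control strain had an M/G1 median of 0.43 and 3 of the 37 peaks called higher, against 5.25% of all tested peaks in that strain. In the SSDDCS strain CLN3, a G1 cyclin, and DSE1, a gene specific to daughter cells, rose, 2 of 37 (5.41%, against 1.41% of all tested peaks). CLN3, named after its values were seen, had 24, 30 and 24 reads at 45, 50 and 60 min, against 14, 9 and 14 at 25, 30 and 35 min (log2 change 1.07, SE 0.30, edgeR adjusted p = 0.038). The 2 deepest peaks of M/G1 genes were at the chitin synthase gene CHS1, with 38, 37 and 32 reads against 29, 34 and 28, and at the licensing factor gene CDC6, with 31, 28 and 27 against 24, 29 and 32.

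All 17 peaks of galactose genes had positive changes, as had 70.3% of all tested peaks, with a median of 0.30. None was called, against 1.41% of all tested peaks, a share at which few calls could fall among 17. The control strain had a median of 0.19 for these peaks. Part of this list is the GAL1-GAL10 promoter with its extra copies. There the peak over the Gal4 sites held 58, 66 and 60 reads, against 57, 52 and 50 (log2 change 0.21, SE 0.19), the peak nearer GAL1 71, 84 and 86 against 52, 60 and 60 (log2 change 0.49, SE 0.17), and the peak nearer GAL10 59, 59 and 57 against 38, 23 and 49 (log2 change 0.67, SE 0.20), the edgeR adjusted p-values of the 3 being 0.62, 0.14 and 0.055. The peak over the Gal4 sites had the smallest change of the 3.

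Glycolytic genes had a median of 0.23 over 36 peaks and stress genes 0.28 over 25, each with 1 higher (2.78% and 4%, against 1.41% of all tested peaks). These were PDC1, pyruvate decarboxylase, with 19, 18 and 21 reads against 4, 7 and 13, and YGP1, a cell wall protein, with 27, 24 and 28 against 19, 10 and 10, both named after their values were seen. The deepest glycolytic peaks, at the phosphoglycerate mutase gene GPM1 and the alcohol dehydrogenase gene ADH1, had 40, 39 and 44 reads against 25, 33 and 32, without overlap, and 20, 48 and 50 against 26, 26 and 24, with the 45 min library below all of the middle window. At TPS2, an enzyme of trehalose synthesis, there were 30, 26 and 31 reads against 19, 23 and 18, and at the stress gene DDR2 23, 32 and 28 against 28, 26 and 25. None of these 4 passed the test.

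Ribosomal protein genes had 0.20 over 152 peaks. Of these, 117 were positive (77.0%, against 70.3% of all tested peaks) and none was called, against 1.41% of all tested peaks. Over the 140 that are promoter peaks the median was 0.21. The deepest, upstream of RPS30B but inside the reading frame of FYV12, had 36, 44 and 32 reads against 44, 42 and 34, and RPL41A had 30, 41 and 27 against 27, 32 and 29. Pheromone response genes, which alpha factor activates, had 0.25 over 19 and none called, with FUS2, a cell fusion gene, at 36, 39 and 34 reads against 26, 24 and 32, and PRM5 at 22, 25 and 36 against 35, 18 and 29. Ribosome biogenesis genes had 0.13 over 48, and the 1 called lower (2.08%, against 0.0882% of all tested peaks) is the CWC2 peak, which lies upstream of NHP2. Its deepest peaks were at NOG2, a GTPase of the large subunit's assembly, with 38, 41 and 45 reads against 30, 48 and 46, and IMP3, a small-subunit factor, with 23, 34 and 31 against 20, 23 and 26. G1/S genes had 0.15 over 43, with CLN1, a G1 cyclin, at 27, 24 and 32 reads against 34, 29 and 39, and MSH6, a mismatch repair gene, at 31, 33 and 35 against 25, 29 and 31. Histone genes (-0.06 over 14) and meiotic genes (0.00 over 8) had the lowest medians, each with as many positive as negative peaks, and the histone sum was 98.8% of G1 in the later window and 96.5% in the middle one. The histone median lay between -0.26 and 0.47 over the other settings, so its direction depends on them. In the promoter that HHT2 and HHF2 share, the peak nearer HHT2 had 33, 48 and 30 reads against 24, 19 and 23 (log2 change 0.75, SE 0.24, edgeR adjusted p = 0.085), and the peak nearer HHF2 27, 31 and 29 against 28, 28 and 25 (log2 change 0.10, SE 0.24). Over promoter peaks alone the medians were 0.00 for histone genes (12 peaks) and -0.07 for meiotic genes (6 peaks). RIM4, a meiotic gene, had 52, 38 and 48 reads against 35, 30 and 27. The peak upstream of SPS4, inside the reading frame of YOR314W, had 15, 34 and 25 against 18, 22 and 22.

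Summed reads were compared for all 39 classes, motif groups and lists. In 28 the windows did not overlap, and in all 28 the later window was higher (exact permutation test, two-sided, p = 0.10 each, 0.14 adjusted over the 40 sums that include the total). The sum over all tested peaks also rose without overlap, to a mean of 293477 RPM at 45 to 60 min from 254996 at 25 to 35 min. Groups drawn from these peaks tend to follow that total, so the count of 28 says nothing about single groups. None could pass at this size, and the groups overlap in members.

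The change of a peak varied with its place along the chromosome. Peaks 20 kb or more from an annotated origin had a median log2 change of 0.33, with 36 of 1141 higher (3.16%), against 0.13 for peaks within 2 kb, with 12 of 775 higher (1.55%). These distant peaks were 20.1% of all tested peaks and 45% of the 80 that rose. The shallow peaks within 10 kb showed the same order, with a median change of 0.02 beyond 20 kb and -0.15 within 2 kb of an origin. Scaled to these shallow neighbours, the medians were 0.30 beyond 20 kb and 0.28 within 2 kb, and between 0.27 and 0.29 in the bins between. On that scale the order of the called shares turned, with 28 of 1141 peaks higher beyond 20 kb (2.45%), against 25 of 775 within 2 kb (3.23%). This scaling by distance was chosen after the data were seen. Near centromeres (within 20 kb) the median was 0.05, and 0.23 after scaling to the neighbours, against 0.20 and 0.29 beyond 100 kb. In the control strain the medians were 0.39 beyond 20 kb from an origin and 0.21 within 2 kb. The number of DNA copies at a site, which doubles when a fork passes, was not measured in these libraries, and its part in the trend was not tested.

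**Figure D5:**
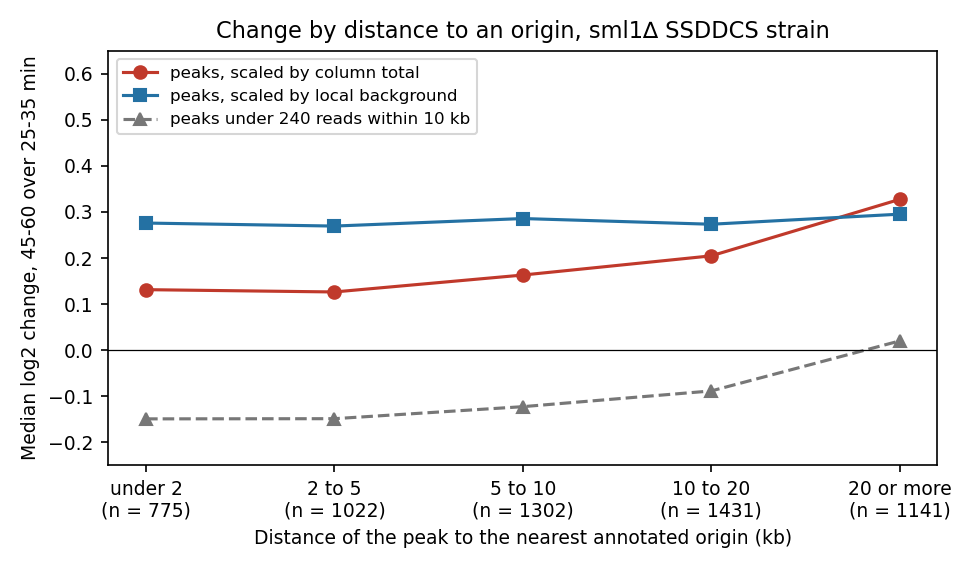
Median log2 change of 45 to 60 min over 25 to 35 min in the sml1∆ SSDDCS strain (y axis) by distance to the nearest annotated origin (x axis, kb, number of peaks in brackets), for tested peaks scaled by the library total (red circles), the same peaks scaled by their shallow neighbours (blue squares) and the neighbours themselves (grey triangles, peaks under 240 reads within 10 kb). The red points go up to 0.33 and the grey points to 0.02 with distance, while the blue points stay between 0.27 and 0.30.

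Within 10 kb of chromosome ends, where repeats are shared between chromosomes, the median was 0.05 over 409 peaks, yet 12 of them were called higher (2.93%, against 1.29% of the 5262 others). Without these and the repeat peaks, 68 peaks rose and 5 fell. The share of calls varied with depth: 6 of 1798 peaks with 240 to 300 reads were higher (0.334%), against 26 of 661 with 600 to 1000 reads (3.93%). Along the promoter the medians lay between 0.23 and 0.30. Within 100 bp of the start codon 2 of 251 peaks were higher (0.797%), and from 700 to 1000 bp upstream 7 of 184 (3.804%). Over all promoter peaks 65 of 3528 were higher (1.84%), against 1.41% of all tested peaks.

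Peaks that stood lowest against G1 at 20 min had the highest median change later. Ranked by the log2 ratio of the 20 min library to the G1 library, neither of which enters the comparison, the lowest 1126 peaks had a median change of 0.36 with 31 higher (2.75%), and stood at 65.5% of the G1 sum at 45 to 60 min, against 51.2% at 25 to 35 min. The highest 1137 had a median of 0.00 with 10 higher (0.880%), and stood at 130% and 129%. In the groups ranked between them 1.23%, 1.25% and 0.957% were higher. Over all tested peaks the median was 0.19 and 1.41% were higher. The G1 library enters both the ranking and these percentages, but not the change. The 20 min library had 25.3% of its reads outside the array in tested peaks, already close to the 25 to 35 min libraries. It is also their serial neighbour, so the ranking is not independent of the middle window. Ranked instead by the control strain's ratio of 25 to 35 min to G1, the lowest 1134 and the highest 1135 peaks had medians of 0.31 and 0.04. Across the 5671 peaks the change correlated with the 20 min ratio at Pearson r = -0.30, a description over peaks that share libraries and depth. Of the 80 peaks that rose, 72 were below their G1 level at 25 to 35 min and 40 were at or above it at 45 to 60 min. The test had picked these peaks for low values at 25 to 35 min, so this is a description.

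The change was compared with that of the control strain at the same times. In the control strain 298 of the 5671 peaks rose (5.25%) and 8 fell (0.141%), with a median of 0.27. The difference between the strains' changes passed the threshold at 0 peaks by edgeR (0%), with 318 peaks at an unadjusted p under 0.05 (5.61%) and a smallest adjusted p of 0.077. With TMM factors and with the local scaling the count was also 0. With sampling time as a block, added after the data were seen, 1 peak passed, the one between NCE102 and SUE1, with 353 at an unadjusted p under 0.05. Of the peaks called, 25 were shared, 31.3% of the SSDDCS peaks and 8.39% of the control peaks, and 78 of the 80 had a positive change in the control strain, as had 73.2% of all peaks. DSE1 and NUP49 were the others, NUP49 with 11, 14 and 8 control reads at 45 to 60 min, against 11, 10 and 15 at 25 to 35 min.

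The 5 peaks with the smallest p-values for this difference did not pass without the time block and are given as values. Between the convergent genes NCE102 and SUE1, the SSDDCS strain had 19, 14 and 18 reads at 45 to 60 min, against 22, 21 and 30 at 25 to 35 min, and the control strain 23, 25 and 37 against 10, 10 and 14 (difference of log2 changes -1.84, SE 0.42, edgeR adjusted p = 0.077, and 0.030 with the time block). At DSE1 the SSDDCS strain had 34, 35 and 28 reads against 16, 15 and 14, with no overlap, and the control strain 9, 31 and 21 against 28, 22 and 26, with overlap (difference 1.40, SE 0.40, edgeR adjusted p = 0.59). SUC2, the invertase gene, had 17, 19 and 24 SSDDCS reads against 16, 18 and 25, and 23, 25 and 27 control reads against 7, 7 and 11. ERG9, squalene synthase, and a peak between RPS21B and GLG2 had SSDDCS changes of -0.49 and -0.94 and control changes of 1.05 and 0.68. In 4 of these 5 peaks the change of the SSDDCS strain was lower than that of the control.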

How the data were processed

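Sub-nucleosomal MNase-seq fragments were mapped by the authors to the S288C genome (sacCer3, R64) with Bowtie2 2.2.6 and SAMtools 0.1.19, per the labels. The authors kept fragments under 100 bp, sampled equal read numbers per fragment size in every library (which evens out fragment lengths), called peaks on all libraries merged and deposited whole read counts per peak. Here counts were scaled by the column total without the rDNA array (XII, 451000 to 491000). Peaks with 240 or more reads over 24 columns were tested with edgeR 4.0.16 (quasi-likelihood, robust, R 4.3.3) and Benjamini-Hochberg adjustment at 0.05, and sums with exact permutation tests. The fit was tested on simulated data. Named peaks were, outside repeats, up to 12 per direction by size among called peaks with windows that do not overlap, the 5 smallest p where fewer than 5 passed, 5 by the strain difference, and the 2 deepest of a described group. Promoter peaks had a start codon within 1000 bp downstream. Each peak was put in the first class it met: repeat, tRNA gene, centromere, origin, reading frame, convergent, promoter, other. The members, motifs and lists were chosen with earlier results of these data known. One motif and 1 gene are not reported here. DESeq2 1.42.0, other scalings, filters and pairing the strains by sampling time were alternatives.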

Additional observations from a re-analysis of the deposited data

How the results depend on the processing

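The limits are low depth, 1 culture and no replicate libraries. The main counts were 80 higher and 5 lower peaks with a median log2 change of 0.19. Counts higher, lower and the median were 12, 9 and 0.00 with TMM factors (exactly -0.00083), 131, 3 and 0.28 with the local background offset, 0, 0 and -0.0063 with DESeq2 (165 peaks at an unadjusted p under 0.05), 87, 1 and 0.24 for 480 or more reads, 25, 3 and 0.00 (0.00098) for 120 or more, 12, 2 and 0.00 (0.00045) with no filter, 32, 1 and 0.19 with the 12 libraries of both strains, 31, 0 and 0.17 with 40 min added to the later window, and 109 and 20 by the 2-fold rule. Without each library in turn, between 8 and 88 peaks were higher, between 0 and 4 lower, and the median lay between 0.17 and 0.21. The 8 came without the 60 min library, and without 30 min 13 remained of the 80. The column total with the array gave 92 and 5. Leaving out repeats and chromosome ends, added after the data were seen, gave 68 and 5. The difference between the strains stayed at 0 peaks with TMM factors and, added later, with the local offset, and was called at 1 peak with sampling time as a block, also added later (smallest adjusted p = 0.030 by edgeR, against 0.077 without the block). The share of reads in peaks of 240 or more reads differed by 3.85 percentage points, by 2.11 with a threshold of 480 reads, by 3.05 with the array in the denominator, and by between 3.38 and 4.52 without each library in turn. The cause of these differences was not tested, except that a stricter or looser filter changes the peaks tested and a left-out library the samples. With TMM factors 38 of the 39 group medians moved by more than the spread between libraries. Of the windows within a strain, no paired analysis was possible because the 3 libraries of a window are serial time points of 1 culture whose numbers only follow the accession order.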
